A study of Homo sapiens with 6 samples.

Results

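The Brpf2 peaks on human chromosome 17 are the regions of that chromosome at which chromatin immunoprecipitation followed by sequencing (ChIP-seq) found Brpf2 in RKO cells. They were taken from the deposited peak list by chromosome name alone, which gave 741 of the 11874 peaks, and all 741 are used below. RKO is an established human colon carcinoma cell line. It was grown without treatment in DMEM with 10% serum. The series has 6 samples of this line, in which Brpf2, ING2, ING5, rabbit IgG, histone H3 or H3K4me3 was immunoprecipitated, 1 sample per target. The Brpf2 library is the 1 analysed here, and the other 5 were not analysed here. No replicate stands beside it, so intervals and tests below describe how peaks are spread within 1 library. Neighbouring peaks are not independent of each other, so the intervals are too narrow and the p-values too small as statements about chromosomes.

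Brpf2, also called BRD1, is a scaffold subunit of MYST-family histone acetyltransferase complexes. It joins a catalytic subunit such as HBO1 to ING-family and MEAF6 subunits, and its PHD fingers, bromodomain and PWWP domain bind histone tails. Such complexes acetylate histone H3 and are known mainly from the promoter regions of active genes. Chromosome 17 is among the human chromosomes most densely packed with genes, and its short arm is clearly shorter than its long arm. No gene positions in hg18, the build of the list, were used, so peaks are given by position (counted from 1) and not by gene, exon or intron, and no peak sequence is shown.

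Brpf2 peaks were crowded on chromosome 17. The chromosome held 9.42 peaks per Mb up to the end of its last peak, against 3.87 per Mb on the other 21 autosomes together, a ratio of 2.44 (exact 95% interval 2.26 to 2.62, exact two-sided binomial p = 2.59e-95). It ranked 2 of 22 autosomes, below chromosome 19 with 12.8 and above chromosome 16 with 6.22. Lengths counted from position 1 include any stretch without peaks at the start of a chromosome. Counted from the first to the last peak, the ratio was 2.36. By the mean count of its 1 Mb windows, 9.38, chromosome 17 also ranked 2, and chromosome 22 stood next with 8.17. Together the 741 peaks covered 1902 kb, or 2.42% of the chromosome, which was also the rank 2 value after 3.08% on chromosome 19. The first peak ran from 29210 to 32755 and the last from 78630595 to 78633556.

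Peak widths on chromosome 17 had a median close to that of the other autosomes. The median chromosome 17 peak was 2365 bp wide, with quartiles of 1746 and 3050 bp, and the median on the other autosomes was 2351 bp. The narrowest peak, from 16590472 to 16591018, spanned 547 bp and scored 85.92. Peaks of 5 kb or more made up 4.05% of the chromosome (30 of 741, exact 95% interval 2.75 to 5.73%) and 4.65% of the other autosomes. Peaks under 1 kb made up 3.91% (29 of 741) and 4.03%. Neither share passed the test of a difference (Fisher's exact test, two-sided, adjusted over 6 shares, p = 0.71 and 1). These 29 narrow peaks were also weak in score, between 51.11 and 152.56.

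The score is the value the authors' caller gave each peak, on a scale that the file does not state, and it ranks peaks only within this list. Scores on chromosome 17 ran from 50.14 to 3233.06 with a median of 552.68 and quartiles of 212 and 1306. The other autosomes had a median of 634.785. On chromosome 17, 45.7% of peaks (42.1 to 49.4%) scored above that value, against 50% of the others. The difference of -4.25 percentage points did not pass after adjustment (Fisher's exact test, two-sided, adjusted p = 0.083). It did pass when chromosome 19, whose median score was the lowest of all autosomes at 403, was left out of the others (difference -4.79 points, Fisher's exact test, adjusted p = 0.036). Chromosome 17 had the rank 19 median score of 22 autosomes.

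Scores in the whole list pile up at 3100, which is close to its top. On chromosome 17, 49 peaks scored exactly 3100 and 1 scored more, while the highest value below was 3019.79. The 50 peaks at or above 3100 were 6.75% of the chromosome (exact 95% interval 5.05 to 8.80%). On the other autosomes the share was 8.58% (924 of 10772, 8.06 to 9.12%), and the difference of -1.83 points did not pass (Fisher's exact test, two-sided, adjusted p = 0.18). Only chromosome 15 had a lower share, 6.42%, and chromosome 19 had a like one, 6.85%. Counted per Mb, chromosome 17 held 0.636 such peaks, rank 2 of 22 after 0.878 on chromosome 19. Lower thresholds gave the same direction. At or above 1000 the shares were 32.5% on chromosome 17 and 35.3% on the others, which did not pass either (Fisher's exact test, adjusted p = 0.26).

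**Figure D1:**
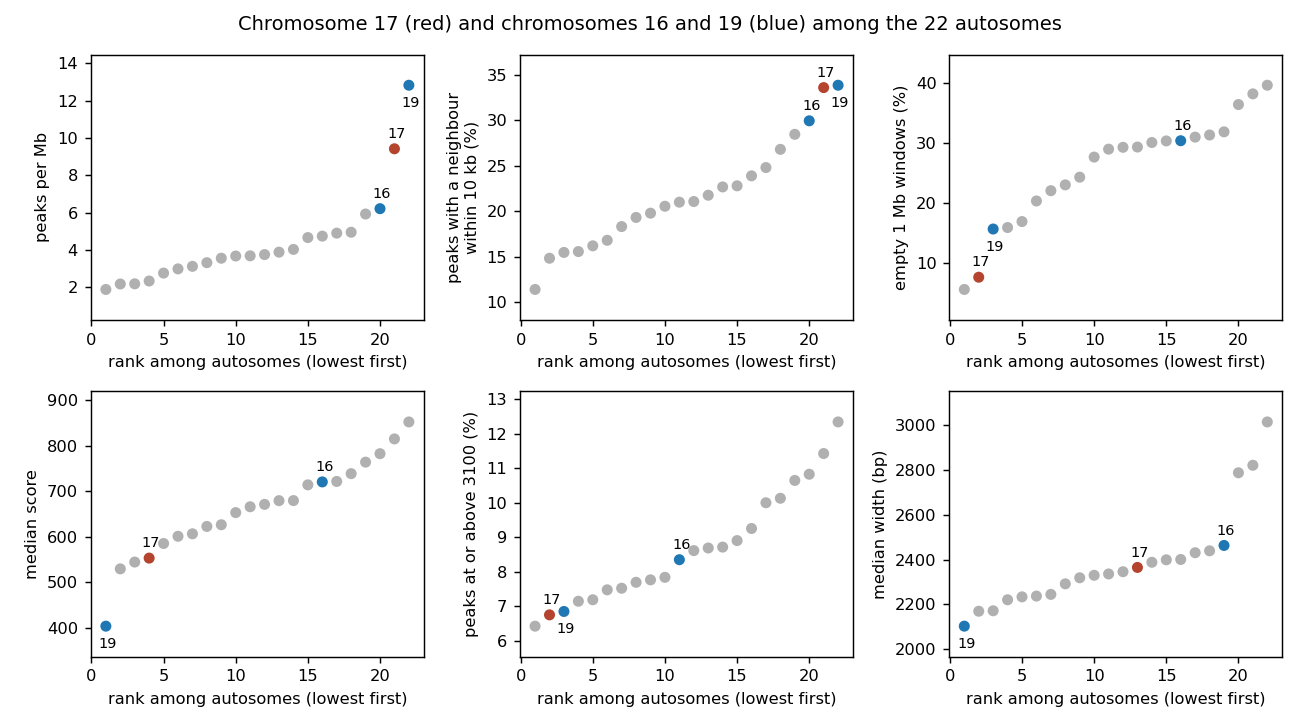
Each panel ranks the 22 autosomes, 1 point each, from lowest to highest by peaks per Mb, share with a neighbour within 10 kb, share of empty 1 Mb windows, median score, share of peaks at or above 3100 and median width. Chromosome 17 (red) sits at rank 2 from the top for peaks per Mb (9.42) and close neighbours (33.6%), at rank 2 from the bottom for empty windows (7.59%) and for the share at or above 3100 (6.75%), and in the middle for width; axes do not start at 0.

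Width and score rose together among the chromosome 17 peaks (Spearman's rho = 0.79 over 741 peaks, a description, since the caller derived both from the same reads). The value over the other autosomes was 0.79 as well. The 50 peaks at or above 3100 were 4741 bp wide at the median and at least 2841 bp wide, and the other 691 had a median of 2291 bp. Among the 30 widest, those of 5 kb or more, 23 (76.7%) reached 3100 and the lowest score was 1619.17. None of the 266 peaks under 2 kb reached 3100, so that a true share of up to 1.13% (3 counts of 266) remains possible. In between, 25 of 161 peaks of 3 to 5 kb did (15.5%, 10.3 to 22.1%), against 499 of 2499 on the other autosomes. At matched width, no class passed the test of a difference from the other autosomes (Fisher's exact test, two-sided, adjusted over 4 classes, lowest p = 0.74).

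**Figure D2:**
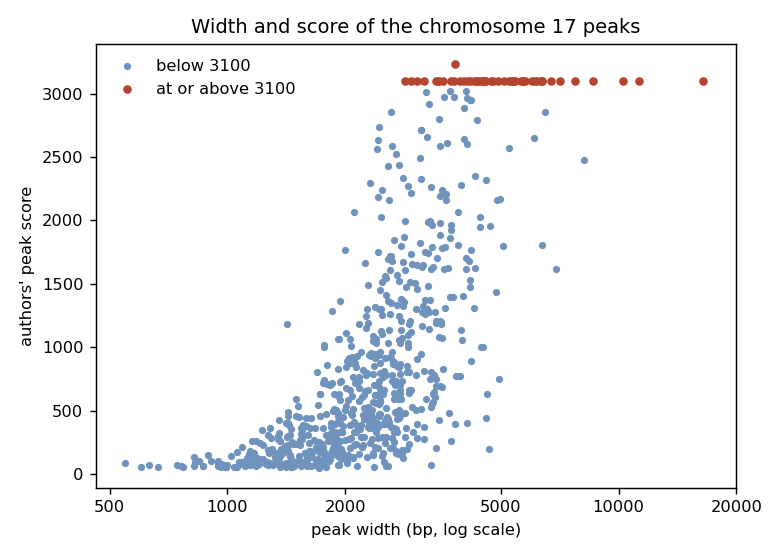
Each point is 1 of the 741 chromosome 17 peaks, with its width in bp on a log axis and the authors' score; peaks at or above 3100 are red. The red points form a flat line at 3100 with 1 point above it at 3233.06, and start at a width of 2841 bp, while peaks under 1 kb all lie at or below 152.56.

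The highest score on the chromosome, 3233.06, belonged to a peak of 3814 bp from 78069941 to 78073754, near the long-arm end, with 5 other peaks within 100 kb. The next by rule are the widest of those at exactly 3100, which the score cannot order. The widest peak of the chromosome, 16455 bp from 60075450 to 60091904, lay 0.639 kb from its nearest neighbour. It was followed by a peak of 11301 bp from 77090336 to 77101636, one of 10245 bp from 24070111 to 24080355 and one of 8582 bp from 34155580 to 34164161. All 4 scored 3100. The fifth in width, 8146 bp from 24938134 to 24946279, scored 2474.67 and was the widest peak below 3100. The lowest score, 50.14, was that of a 1717 bp peak from 15527140 to 15528856.

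Few windows of chromosome 17 were without Brpf2. Of its 79 windows of 1 Mb, counted on a grid from position 1 with peaks placed by their midpoints, 6 were empty (7.59%, exact 95% interval 2.84 to 15.8%). On the other autosomes 754 of 2711 were empty (27.8%, 26.1 to 29.5%), and chromosome 22 alone had a lower share than chromosome 17, with 5.56%. The median window held 8 peaks, against 2 on the other autosomes. There were 18 windows with 1 to 4 peaks, 21 with 5 to 9, 26 with 10 to 19 and 8 with 20 or more. These 8 crowded windows were 10.1% of the windows and held 198 peaks, or 26.7%. On the other autosomes 2.21% of windows were as crowded. How evenly the peaks were spread depended on the measure. Its most crowded 10% of windows, which are these same 8, held 26.7% of its peaks, rank 20 of 22, where the median of the other autosomes was 36.8%. By the ratio of the variance to the mean of its window counts, 6.08, it ranked 7 of 22, above the others' median of 4.43. Neither measure was adjusted for density. With clustered counts this ratio tends to rise with the mean count. That mean was 9.38 on chromosome 17, against a median of 3.75 among the others.

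**Figure D3:**
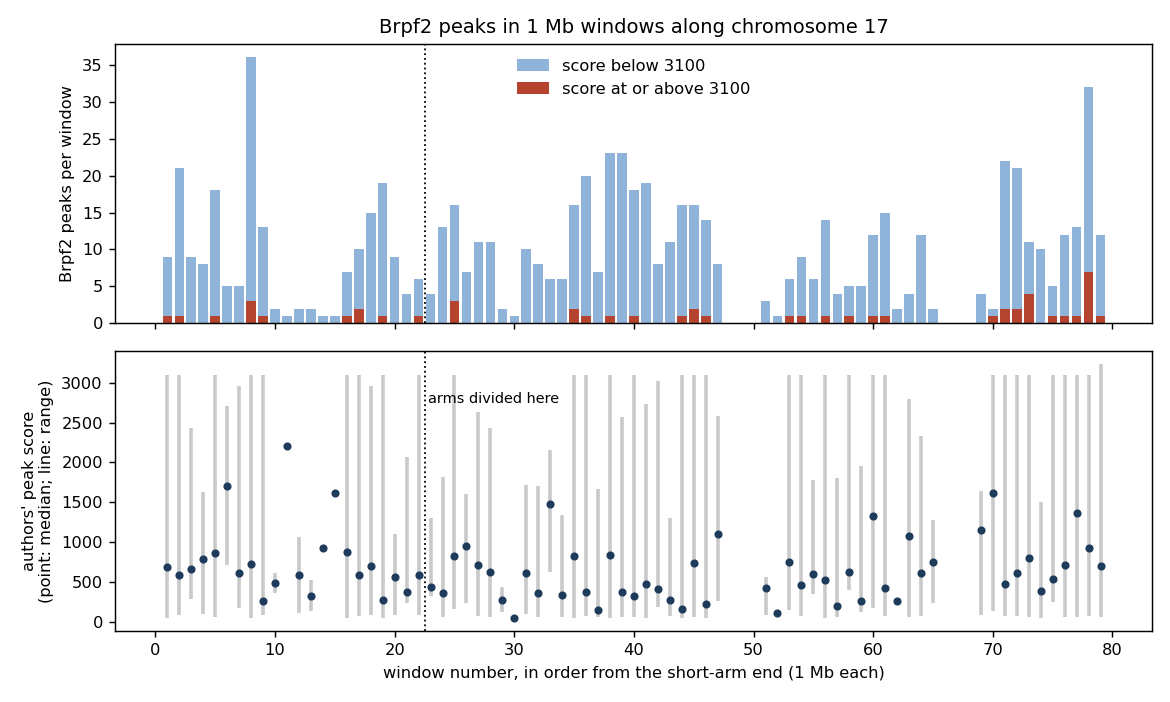
Top, the number of Brpf2 peaks in each of the 79 windows of 1 Mb of chromosome 17, with those at or above 3100 in red; bottom, the median score (point) and the range (line) of each occupied window. The dotted line divides the arms at 22 Mb. Tall bars stand at windows 8 (36 peaks) and 78 (32), and windows 48 to 50 and 66 to 68 are empty.

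The arms were divided at 22 Mb, the approximate place of the centromere by general knowledge. No peak lay between 21655901 and 22644371, so any division within that stretch of 988 kb gives the same 2 groups. The short arm then held 203 peaks at 9.23 per Mb and the long arm 538 at 9.50 per Mb, a ratio of 0.97 (exact 95% interval 0.82 to 1.14, exact two-sided binomial p = 0.74). The median width was 2515 bp on the short arm and 2334.5 bp on the long arm, and the median score 633 and 510. Peaks at or above 3100 were 12 of 203 (5.91%, 3.09 to 10.1%) and 38 of 538 (7.06%, 5.05 to 9.57%). A neighbour within 10 kb was found for 39.4% of short-arm peaks (32.6 to 46.5%) and 31.4% of long-arm peaks (27.5 to 35.5%). None of the 6 shares passed the test between the arms after adjustment (Fisher's exact test, two-sided, lowest adjusted p = 0.24). The density ratio depended on the window from 7000001 to 8000000, which held 36 of the 203 short-arm peaks. Without it the ratio was 0.84, with the short arm the lower. That window was picked for its own count and left out of the short arm only. The long arm kept its fullest window, with 32 peaks, so the ratio could only fall and no test is given.

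Along the short arm, peaks were dense near the end, sparse in the middle, dense again beyond that and thinner next to the centromere. The first 9 windows held 124 peaks, between 5 and 36 each, with a median score of 694. The next 6 windows, from 9000001 to 15000000, held 9 peaks in all, 1 or 2 in each, and none at or above 3100. Of these, the peak from 10539495 to 10543117 was the most isolated of the chromosome, 1049 kb from its nearest neighbour, yet it was 3623 bp wide and scored 2206.2. Windows 16 to 20 then held 60 peaks, up to 19 in the window from 18000001 to 19000000. That window had a median score of 281, with 4 of its 19 peaks under 1 kb. The last 2 windows before the arm boundary held 4 and 6 peaks. No window of the short arm was empty.

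The most crowded window of the chromosome was on the short arm, from 7000001 to 8000000. It held 36 peaks that covered 117 kb, with a median width of 2926.5 bp and a median score of 723.58. Of these peaks, 23 had a neighbour within 10 kb, 5 were 5 kb or wider and 3 were at or above 3100. The median gap between its peaks was 11.9 kb. Its neighbours on either side held 5 and 13 peaks. Also on the short arm, the window from 1000001 to 2000000 held 21 peaks with a median score of 592.59, 1 of them at or above 3100.

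On the long arm, 1 dense broad stretch was that of 12 windows from 34000001 to 46000000, chosen after the profile was seen. It held 191 peaks, 25.8% of the chromosome, at 7 to 23 a window and 15.9 on average. The 9 windows from 70000001 held 15.3 on average. The last of those 9 counts as a whole window although the last peak ends at 78633556, so the 2 stretches cannot be ordered. The scores there were low, with a median of 379, and 9 of the 191 peaks (4.71%, 2.18 to 8.76%) were at or above 3100. Inside it, the windows from 37000001 and from 38000001 held 23 peaks each and differed in score. The first had a median of 844.96 and the other one of 372.60, with no peak at or above 3100 and a highest score of 2566. The window from 43000001 to 44000000 held 16 peaks with a median score of 168.

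Both runs of empty windows lay on the long arm. They were 3 windows each, from 47000001 to 50000000 and from 65000001 to 68000000. Between them lay 100 peaks in the 15 windows from 50000001 to 65000000, or 6.67 a window. That was below the chromosome's own mean of 9.38 and above the mean of 3.97 on the other autosomes. The windows of this stretch ranged from 1 peak to the 15 found from 60000001 to 61000000, where the widest peak of the chromosome lies. Closer to the centromere, the window from 29000001 to 30000000 held a single peak of 600 bp with a score of 51.11.

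The long-arm end was dense and held more of the peaks at or above 3100 than its share of all peaks. From 70000001 onward, 9 windows held 138 peaks, of which 19 were at or above 3100 (13.8%, exact 95% interval 8.50 to 20.7%). The rest of the chromosome had 31 of 603 (5.14%, 3.52 to 7.22%). This boundary was chosen after the values were seen, so no test is given. The window from 77000001 to 78000000 held 32 peaks covering 108 kb with a median score of 923.83, and 7 of them were at or above 3100, the most in any window of the chromosome. The window from 72000001 to 73000000 followed, with 4 of 11. The windows from 70000001 and from 71000001 held 22 and 21 peaks, with 2 at or above 3100 in each.

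A division at the middle of the longest stretch between neighbouring peaks had been planned as the arm boundary. That stretch proved to lie within the long arm, so the division separates the last 30.1 Mb of the chromosome from the short arm and the nearer part of the long arm. Before it there were 10.2 peaks per Mb and after it 8.10, a ratio of 1.26 (exact 95% interval 1.08 to 1.48, exact two-sided binomial p = 0.0025). This passed, but not with the whole stretch counted to the first side (ratio 1.15, exact binomial p = 0.085), nor without the peaks under the list's median score (1.16, exact binomial p = 0.19). With the stretch counted to the other side the ratio was 1.39. The boundary comes from the positions of these same peaks, which the binomial test does not allow for. Its p-values therefore cannot be read as a test of parts set in advance. The 497 peaks before it included 24 at or above 3100 (4.83%, 3.12 to 7.10%), and the 244 after it included 26 (10.7%, 7.08 to 15.2%). This was the 1 of 6 shares that passed (Fisher's exact test, two-sided, adjusted p = 0.028). Part of the difference came from the window from 77000001 to 78000000. Without it 19 of 212 peaks (8.96%) after the stretch were at or above 3100, a difference of -4.13 points. That window was picked for its own count of such peaks and left out of this side only. The difference could therefore only shrink, and no test is given. The call was lost when the lower-scoring peaks, those under the median of the whole list, were left out (Fisher's exact test, adjusted p = 0.058). The difference nevertheless grew from -5.83 to -10.7 points, with fewer peaks tested.

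Crowded windows of chromosome 17 had median scores like those of sparser windows. Over the 73 occupied windows, the number of peaks and the median score showed almost no relation (Spearman's rho = -0.00054), and the number and the median width a weak one (0.12). The number of peaks and the share at or above 3100 had a rho of 0.44 (0.56 on the short arm and 0.40 on the long arm). Windows with few peaks mostly hold none at or above 3100 even where the share per peak is constant. This last rho therefore cannot show that the share differs with crowding. All these values of rho are descriptions over windows of 1 library. Among pooled peaks, the share at or above 3100 was higher in each more crowded class of windows, an order that was not tested. It was 1 of 42 peaks in windows with 1 to 4 peaks, 4.86% in those with 5 to 9, 25 of 357 in those with 10 to 19 and 8.59% in those with 20 or more. In this last class, 7 of the 17 peaks at or above 3100 lay in the window from 77000001 to 78000000. The last step of the order depends on that window. The other autosomes had 7.46%, 9.15%, 8.33% and 9.46% in the same classes. Chromosome 17 had the lower value in all 4, and no class passed the test (Fisher's exact test, two-sided, adjusted over 4 classes, lowest p = 0.40). Of the 73 occupied windows, 41 had no peak at or above 3100.

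**Figure D4:**
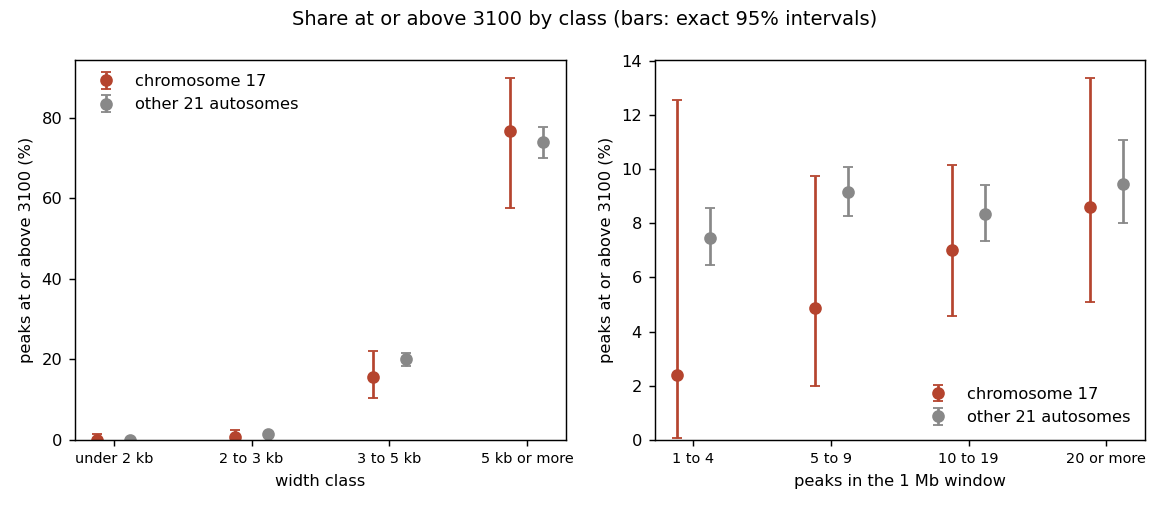
Share of peaks at or above 3100 on chromosome 17 (red) and on the other 21 autosomes (grey), by peak width (left) and by the number of peaks in the same 1 Mb window (right), with exact 95% intervals. The left panel rises from 0 of 266 narrow peaks to 76.7% of those of 5 kb or more on chromosome 17. The intervals of both groups overlap in every class; in windows with 5 to 9 peaks 4.86% stands beside 9.15%.

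Neighbouring Brpf2 peaks on chromosome 17 lay close together. The median gap from the edge of a peak to the next was 41.4 kb (exact 95% interval of the median 36.5 to 47.0 kb), against 71.5 kb on the other autosomes, and the quartiles were 14.9 and 99.5 kb. Only chromosome 19 had a shorter median, 31.5 kb. A neighbour within 10 kb was found for 249 of the 741 peaks (33.6%, 30.2 to 37.1%) and for 22.3% of peaks on the other autosomes (21.6 to 23.1%). This difference of 11.3 points was the 1 of the 6 shares that passed (Fisher's exact test, two-sided, adjusted p = 8.5e-11). The share was not adjusted for peak density, for which the ratio was 2.44. The test therefore cannot tell close pairing from density alone. The difference did not extend to the shortest distance. Within 2 kb the shares were 8.50% (6.59 to 10.7%) and 8.32% (7.80 to 8.86%) (Fisher's exact test, adjusted p = 1), while within 50 kb they were 77.6% and 59.3% (Fisher's exact test, adjusted p = 1.7e-23).

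The share with a neighbour within 10 kb was also taken by the number of peaks in the window. On chromosome 17 it was 8 of 42 (8.60 to 34.1%) in windows with 1 to 4 peaks, 18.8% (12.7 to 26.1%) in those with 5 to 9, 35.9% (30.9 to 41.1%) in those with 10 to 19 and 43.4% (36.4 to 50.6%) in those with 20 or more. The other autosomes had 9.82%, 16.9%, 28.9% and 45.9% in the same classes. Chromosome 17 was thus higher in the first 3 classes and lower in the most crowded one, and in each class the difference was below the 11.3 points of the whole. These values by class were added after the data were seen and were not tested. Peaks at or above 3100 had a neighbour within 10 kb in 24 of 50 cases (48%, 33.7 to 62.6%), and the other peaks in 225 of 691 (32.6%, 29.1 to 36.2%). Those at or above 3100 were also wider. By width, the share was 18 of 30 (60%) at 5 kb or more, and 31.0 to 35.4% in the narrower classes. Score and width were not separated here, and neither difference was tested.

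**Figure D5:**
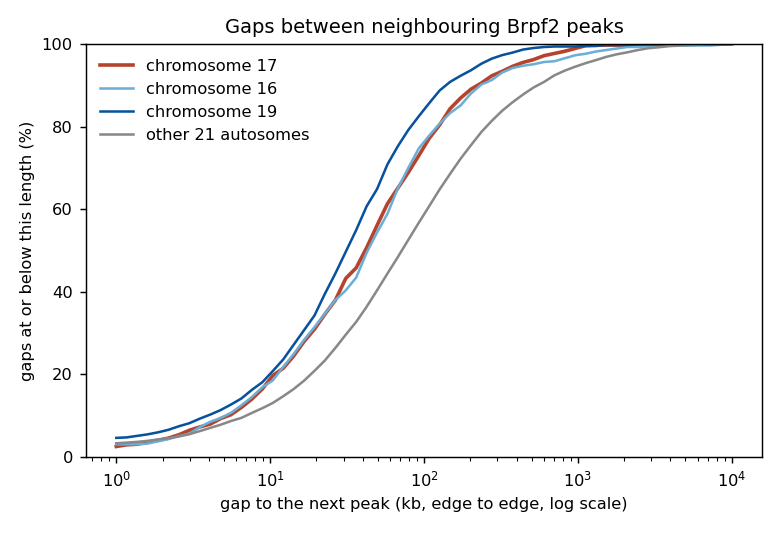
The curves give the percentage of gaps between neighbouring peaks at or below each length, edge to edge on a log axis, for chromosome 17 (740 gaps), chromosomes 16 and 19, and the other 21 autosomes, which include both. The chromosome 17 curve lies left of that of the other autosomes for all but the shortest gaps, with medians of 41.4 and 71.5 kb, runs close to chromosome 16 except among the longest gaps, and lies right of chromosome 19 up to about 1 Mb, beyond which the 2 curves cross.

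Close peaks formed short chains. Linking peaks less than 10 kb apart gave 92 pairs and 20 chains of 3 or more on chromosome 17, and no chain exceeded 4 peaks, where chromosomes 16 and 19 each had a chain of 9. Of the chromosome 17 peaks, 8.77% were in chains of 3 or more, against 6.93% on the other autosomes together, 12.5% on chromosome 16 and 12.6% on chromosome 19. The longest chain by span, 30.4 kb from 7075930 to 7106324 in the most crowded window, had 4 peaks that scored 1634.46, 3100, 2640.33 and 117.05 in order of position. The next, from 44029437 to 44059753, rose from 1000.98 through 1769.67 to 2 peaks at 3100, of 5699 and 3174 bp. The third, from 77461075 to 77489237, had no peak at 3100 and a highest score of 2070.30.

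At the other end, 7 gaps exceeded 1 Mb. They were 0.946% of the gaps on chromosome 17, against 5.27% on the other autosomes, and together they made up 12.5 Mb. The longest, 3.64 Mb from 46694741 to 50332624, and the next, 3.26 Mb from 64835771 to 68099718, hold the 2 runs of empty windows. The others among the 5 longest were 1.30 Mb from 10543118 to 11840666, 1.11 Mb from 28280640 to 29390919 and 1.08 Mb from 51184411 to 52264517. The stretch at the arm boundary, 988 kb, ranked 8. The longest gap of chromosome 17 was short beside the median of 6.70 Mb for the longest gaps of the other autosomes, and 3 autosomes had a shorter one. Whether reads can be placed in these stretches was not examined.

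Chromosomes 16 and 19, the other autosomes with 8 or more windows of at least 20 peaks (chromosomes 1, 6 and 11 had 6 each), differed from chromosome 17 in how their windows were filled and in peak score. Chromosome 16 had the same number of windows with 20 or more peaks as chromosome 17, 8, but 27 of its 89 windows were empty. Its median gap was 43.0 kb and its longest 13.4 Mb, so that many of its empty windows lay in 1 stretch. Its peaks scored higher, with a median of 720 and 54.6% (50.4 to 58.8%) above the median of the other autosomes, against 45.7% on chromosome 17. Chromosome 19 had 15 crowded windows of 64 and 10 empty ones, many of them in its longest gap of 8.91 Mb. Its peaks were narrower and lower in score than those of chromosome 17, with 40.0% (36.6 to 43.4%) above the width median of the other autosomes, against 378 of 741 (47.3 to 54.7%), and 37.7% above the score median. Close neighbours, within 10 kb, were found for 29.9% of peaks on chromosome 16, 33.6% on chromosome 17 and 33.9% on chromosome 19. Differences between these 3 chromosomes were not tested. Nor was it examined whether reads can be placed in the longest gaps of chromosomes 16 and 19.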

How the data were processed

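ChIP-seq was carried out in RKO cells, and the deposited peak list of the Brpf2 library was used. Per the submitters' processing notes, the build was hg18 and the tools included BWA, SAMtools and bedtools. The deposited file names its peaks after MACS. The control library and the settings are not stated there. The score of each peak comes from the authors, with no stated scale or normalization. Read depth is unknown, so single peaks have no counting interval.

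Width, gaps (edge to edge) and windows of 1 Mb were computed in Python 3.11.15 with pandas 2.3.3 and SciPy 1.17.1. Chromosome length was the end of the last peak. Shares have exact Clopper-Pearson 95% intervals and Fisher's exact tests, two-sided, with Benjamini-Hochberg adjustment over 6 shares or 4 classes and a threshold of 0.05. Densities were compared by an exact binomial test. Shares in the arms were set against the medians of chromosome 17. The code was checked on a small made-up list, and on this list with its scores shuffled between peaks and with top scores added. The shuffled lists checked only the test of the share at or above 3100. The named regions are the 5 most crowded windows, runs of empty windows, the 5 longest gaps, the 5 widest and 5 highest-scoring peaks, the 3 largest chains, and the first, last, narrowest and lowest-scoring peaks. Other regions were chosen after their values were seen. The members, measures and tests were chosen with earlier results of these data known. The planned arm boundary fell inside the long arm, so 22 Mb, which had been fixed as another boundary, defines the arms. Base composition was not analysed, since no hg18 genome was used.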

Additional observations from a re-analysis of the deposited data

How the results depend on the processing

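Of 109 alternatives, 83 changed neither a direction nor a call and left untested values within their intervals. Some of the 83 could not change. Moving the division to the start or the end of the longest stretch, which holds no peak, leaves the same peaks on each side. All 6 shares then repeat exactly. Higher-scoring peaks are those not below the list's median. The density ratio of chromosome 17 ranged from 2.28 (higher-scoring peaks) to 2.58 (without chromosome 19). The excess of neighbours was lost within 2 kb (0.18 points). Differences here are in percentage points, chromosome 17 minus the other autosomes, or the part nearer the short-arm end minus the rest. The share above the median score passed without chromosome 19 (-4.79). The share above the median width, 1.05 and not called, was -1.56 among higher-scoring peaks, -0.11 with peaks joined within 1 kb and -0.17 without chromosome 19. That of peaks under 1 kb, -0.12, was 0.026 with peaks joined. For the division at the longest stretch, the density ratio of 1.26 (called) was 1.16 among higher-scoring peaks, 1.15 with the stretch counted to the first side, and 0.97 at 22 Mb, none of them called. The share at or above 3100, -5.83, was -10.7, no longer called, among higher-scoring peaks, -4.13 without window 78 and -1.15 at 22 Mb. At 22 Mb the uncalled differences turned to 7.22 (score), 6.54 (width) and 1.21 (5 kb or more). With peaks joined the last was 0.059. Close neighbours turned to -3.69 (higher-scoring peaks) and -0.49 (without the most crowded window). For the arms at 22 Mb, the density ratio was 1.09 among higher-scoring peaks and 0.84 without the most crowded window. Without that window the share of 5 kb or more was -0.72, and close neighbours were -0.71 among higher-scoring peaks. Windows of 0.5 Mb were empty in 16.5% of cases, and the most crowded 10% of 2 Mb windows held 22.9% of peaks. Chains of 3 or more numbered 7 within 5 kb and 50 within 20 kb, which follows from the distance. Other causes were not tested. Among higher-scoring peaks none was under 1 kb on chromosome 17, so that share gave no value for its divisions. No paired analysis was possible because each group has 1 sample. Read depth is unknown, so weak peaks that a deeper library would add cannot be counted.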
